A study of Mus musculus with 96 samples.

Results

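Hlf, Tef and Dbp, Nfil3, and Bhlhe40 and Bhlhe41 are transcription factors that carry the timing of the circadian clock to other genes. They were taken from the gene counts by their symbols in the GENCODE M21 annotation and made up 6 of the 54833 features in the table. No measured value entered this rule, but the set was chosen with earlier results of these data known. Counts of 5 of them were high enough to test in every tissue, whereas Dbp was almost uncounted. To follow how these factors run over the day and after loss of sleep, RNA was sequenced from 4 organs or brain regions (liver, kidney, forebrain and cerebellum) of male wild-type C57BL/6 mice, aged 6 to 8 weeks. Mice that were left undisturbed (CON) were compared with mice that were sleep-deprived (SD) for 10 h of their rest phase in a slowly rotating drum, where food and water were at hand. Housing was in a cycle of 12 h light and 12 h dark. After the deprivation, tissue was collected under constant darkness at CT4 and then at intervals of 4 h up to CT24, for 6 times in all. The time since the end of deprivation thus differed between these times. CT is circadian time as written in the sample titles, and how it relates to clock hours was not tested. Each of the 48 combinations of tissue, condition and time had 2 libraries of rRNA-depleted total RNA, which makes 12 CON and 12 SD libraries per tissue and 96 in all.

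Hlf, Tef and Dbp are the 3 PAR bZIP activators, which bind a DNA element called the D-box and drive rhythmic genes of detoxification and metabolism in liver and kidney. Nfil3, also called E4BP4, is a repressor that binds the same element, so that the balance of Nfil3 against the activators sets the output at the D-box. Bhlhe40 and Bhlhe41, also called DEC1 and DEC2, are repressors that compete with CLOCK and BMAL1 at the E-box, the element through which the core clock activates its targets.

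Parts of the promoters of these genes are shown because the same elements through which the factors act can also stand in front of the factors themselves. Promoter sequences from RefSeq on GRCm38.p6, from 250 bases before to 50 bases after a transcription start, were found for 5 of the 6 genes, with 6 sequences in all because Tef had 2 starts. Bhlhe40 had no entry. Each promoter was searched on both strands for the E-box CACGTG, for the D-box as TTATGTAA, TTACATAA or TTACGTAA, and for the ROR element as TAGGTCA or TGACCTA, to which the repressors NR1D1 and NR1D2 are known to bind. The capitals in the sequences mark the match, and all are written 5′ to 3′ on the strand of the gene.

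Bhlhe41: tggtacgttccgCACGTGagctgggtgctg

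Tef, first start: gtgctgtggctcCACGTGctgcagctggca

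Tef, second start: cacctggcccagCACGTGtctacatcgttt

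Nfil3: gcgctcggaacTGACCTActaac

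The Bhlhe41 E-box lay 153 bases before the start, within chr6:145865556-145865585 on the minus strand, and before the gene in the annotation. The E-box of the first Tef start lay 127 bases before it, within chr15:81802534-81802563 on the plus strand, in an exon of the annotated gene. The E-box of the second Tef start lay 138 bases before it, within chr15:81811264-81811293 on the plus strand, in an intron. Nfil3 held a ROR element 12 bases before its start, within chr13:52981040-52981062 on the minus strand, in an exon. None of the 3 words was found in the Hlf and Dbp promoters, and no D-box was found in any of the 6 sequences. Among 32851 RefSeq promoters of 300 bases, 7.15% held an E-box, 2.61% a ROR element and 1.06% a D-box by the same search. These matches describe the letters alone, as binding was not measured.

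On GRCm38, Hlf (ENSMUSG00000003949) extends on chromosome 11 from 90336536 to 90390895, Tef (ENSMUSG00000022389) on chromosome 15 from 81802421 to 81826863, and Dbp (ENSMUSG00000059824) on chromosome 7 from 45705088 to 45710203. Nfil3 (ENSMUSG00000056749) extends on chromosome 13 from 52967209 to 52981073, and the Bhlhe genes are both on chromosome 6, Bhlhe40 (ENSMUSG00000030103) from 108660629 to 108666925 and Bhlhe41 (ENSMUSG00000030256) from 145858243 to 145865558. The smallest count of a library was 1335 for Hlf, 1140 for Tef, 869 for Bhlhe40, 80 for Nfil3 and 25 for Bhlhe41. Counting error was therefore small for the first 3 of these genes and widest for Bhlhe41, whose lowest counts were in the liver.

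Libraries held 24.8 to 58.5 M counts, and levels are given as CPM, the count scaled to the library total. Markers of each tissue were present in the libraries labelled with it. Sums over 5 markers were 62103 to 85344 CPM in CON liver and 15215 to 20964 in CON kidney. They were 432 to 1332 in CON forebrain and 1616 to 1984 in CON cerebellum. A mean of 1 CPM was reached by 4 of the 5 in liver and cerebellum and by all 5 in kidney and forebrain. In CON kidney the cerebellum markers summed to 392 to 540 CPM, with 1 marker at 1 CPM or more. The liver markers summed to 4.04 to 104 CPM there (median 6.52). In the kidney, 20 of 24 libraries carried a condition or time in their characteristics that their titles did not carry. Titles were used, as the columns of the count table carry them, and every kidney value below rests on that choice. In the cerebellum, replicate 1 of CON at CT8 stood apart, as antisense genes took 3.60% of its counts against 0.831% to 0.979% in the other 23 cerebellum libraries. This library also had the lowest cerebellar Tef level and more reads on Gm17597, the gene antisense to Tef, with 55.5 CPM against 10.8 to 23.2 in the others. Bhlhe40 was also lowest there (35.1 CPM), with 0610040F04Rik on its opposite strand at 29.1 CPM against 17.0 to 26.6. Gm43909, opposite Bhlhe41, held 25.7 CPM against 8.37 to 13.6, but Bhlhe41 at 93.4 CPM lay within the 82.8 to 123 of the others. The tests and fits that use this library were repeated without it. In these whole tissues, fewer cells of a type and less RNA per cell cannot be told apart.

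The levels of the factors in CON were first compared between tissues. Per kb of exon, which allows comparison between genes, Tef was the most abundant of the 5 in the forebrain, the cerebellum and the kidney, with means over 12 libraries of 46.0, 41.9 and 38.2 CPM per kb. In the liver, Bhlhe40 was highest at a mean of 29.1 CPM per kb, followed by Tef at 20.01, Nfil3 at 16.01, Hlf at 8.91 and Bhlhe41 at 0.380. The order of the liver thus differed from that of the forebrain, where Nfil3 was the lowest at 3.93 CPM per kb and Bhlhe41 stood at 10.5.

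**Figure D1:**
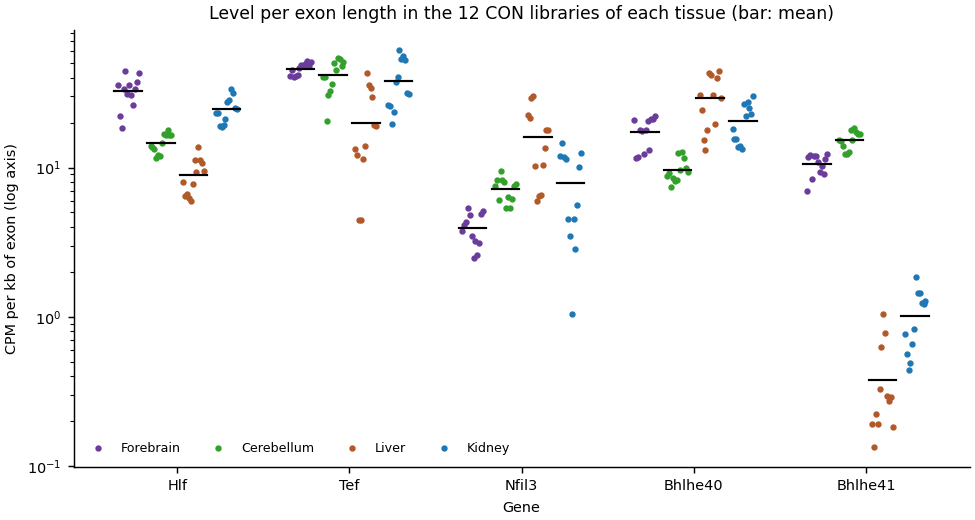
CPM per kb of exon (log axis) of 5 factors in the 12 CON libraries of each tissue, with 1 point per library and a bar at the mean. Bhlhe41 separates the brain regions (means 10.5 and 15.3 CPM per kb) from liver (0.380) and kidney (1.02) with no overlap, while Nfil3 is highest in the liver (16.01).

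The sharpest difference between tissues was that of Bhlhe41. Its CPM ranged from 46.7 to 82.5 in the forebrain (median 75.3) and from 82.8 to 123 in the cerebellum (median 102), but from 0.905 to 7.06 in the liver (median 1.88) and from 2.96 to 12.4 in the kidney (median 6.92). No liver or kidney library reached the level of any brain library. In the quasi-likelihood test of edgeR with TMM scaling, the log2 difference was 4.83 between cerebellum and liver (adjusted p = 1.1e-32), 4.46 between forebrain and liver and 3.43 between forebrain and kidney. Kidney exceeded liver by 1.03 on the log2 scale, with the ranges overlapping.

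Nfil3 had the reverse order between brain and liver. CON levels were 12.1 to 60.7 CPM in the liver (median 31.7), 2.12 to 29.4 in the kidney (median 15.96), 10.8 to 19.2 in the cerebellum (median 15.2) and 4.99 to 10.8 in the forebrain (median 7.94). Every liver library was above every forebrain library, and the ratio of the highest to the lowest library was largest in the kidney. The forebrain was below the liver by 2.46 ± 0.17 (SE) and below the kidney by 0.84 ± 0.16 on the log2 scale, both past the threshold, while the cerebellum and the kidney did not differ beyond their spread (log2 difference -0.12 ± 0.16, adjusted p = 0.491 by edgeR).

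Hlf was highest in the forebrain, at 122 to 297 CPM (median 225), and then in the kidney, at 124 to 224 CPM (median 160). Cerebellum and liver were lower, at 77.6 to 119 CPM (median 94.9) and 39.8 to 91.9 CPM (median 57.9). The forebrain exceeded the kidney by 0.38 ± 0.09 and the kidney exceeded the liver by 0.97 ± 0.09 on the log2 scale. The order of cerebellum and liver depended on the scaling, since their log2 difference was 0.01 ± 0.09 with TMM (adjusted p = 0.915) and 0.75 with library sizes alone. Over all genes tested the median log2 difference between cerebellum and liver was 0.36 with TMM and 1.04 with library sizes alone, and for forebrain against liver it was 0.27 and 0.81.

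Tef varied less between tissues, with CON medians of 129 CPM in the liver, 270 in the kidney, 338 in the cerebellum and 368 in the forebrain. The forebrain values, 318 to 409 CPM, lay inside the kidney range of 155 to 481 CPM. By edgeR the forebrain exceeded the kidney by 0.29 ± 0.10 (adjusted p = 0.00779) and the cerebellum by 0.32 ± 0.10 on the log2 scale, the latter being 0.27 ± 0.09 without the cerebellum library that stood apart (adjusted p = 0.0107) and falling to 0.17 with library sizes alone (adjusted p = 0.143). Cerebellum and kidney did not differ beyond their spread, at a log2 difference of -0.03 ± 0.10, which was 0.02 ± 0.09 without the cerebellum library that stood apart and 0.18 with library sizes alone.

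Bhlhe40 was highest in the liver, at 61.5 to 210 CPM (median 141), and lowest in the cerebellum, at 35.1 to 59.97 CPM (median 43.4), where its range was narrow. Kidney, at 62.9 to 142 CPM (median 94.9), and forebrain, at 54.4 to 104 CPM (median 83.8), lay between and overlapped both each other and the liver. The liver exceeded the cerebellum by 2.31 ± 0.15 on the log2 scale, whereas forebrain and kidney did not differ beyond their spread (-0.26 ± 0.14, adjusted p = 0.0854 by edgeR). Differences between tissues were common over the whole table, at 71.2% of genes for forebrain against cerebellum, 86% for forebrain against liver, 84.9% for forebrain against kidney, 87.8% for cerebellum against liver, 87% for cerebellum against kidney and 69.2% for liver against kidney. Of the 5 factors, 5, 5, 4, 4, 3 and 5 passed in the same order, which does not set them apart from the background.

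Rhythms in CON were examined next, with a cosine of 24 h fitted to the counts by edgeR in each tissue. All 5 factors passed in the kidney, where 3.93% of genes did, and 4 of the 5 in the liver, where 8.79% did. In the forebrain and the cerebellum, where 0.0997% and 0.0045% of genes passed, none of the 5 did, although 2 and 5 of them had an unadjusted p under 0.05. By the likelihood ratio test of DESeq2, 1 of the 5 passed in the forebrain and 4 in the cerebellum. Peak times and peak-to-trough folds come from least-squares fits to log2 CPM, with SE. A fitted peak can differ from the sampled time of the highest mean.

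**Figure D2:**
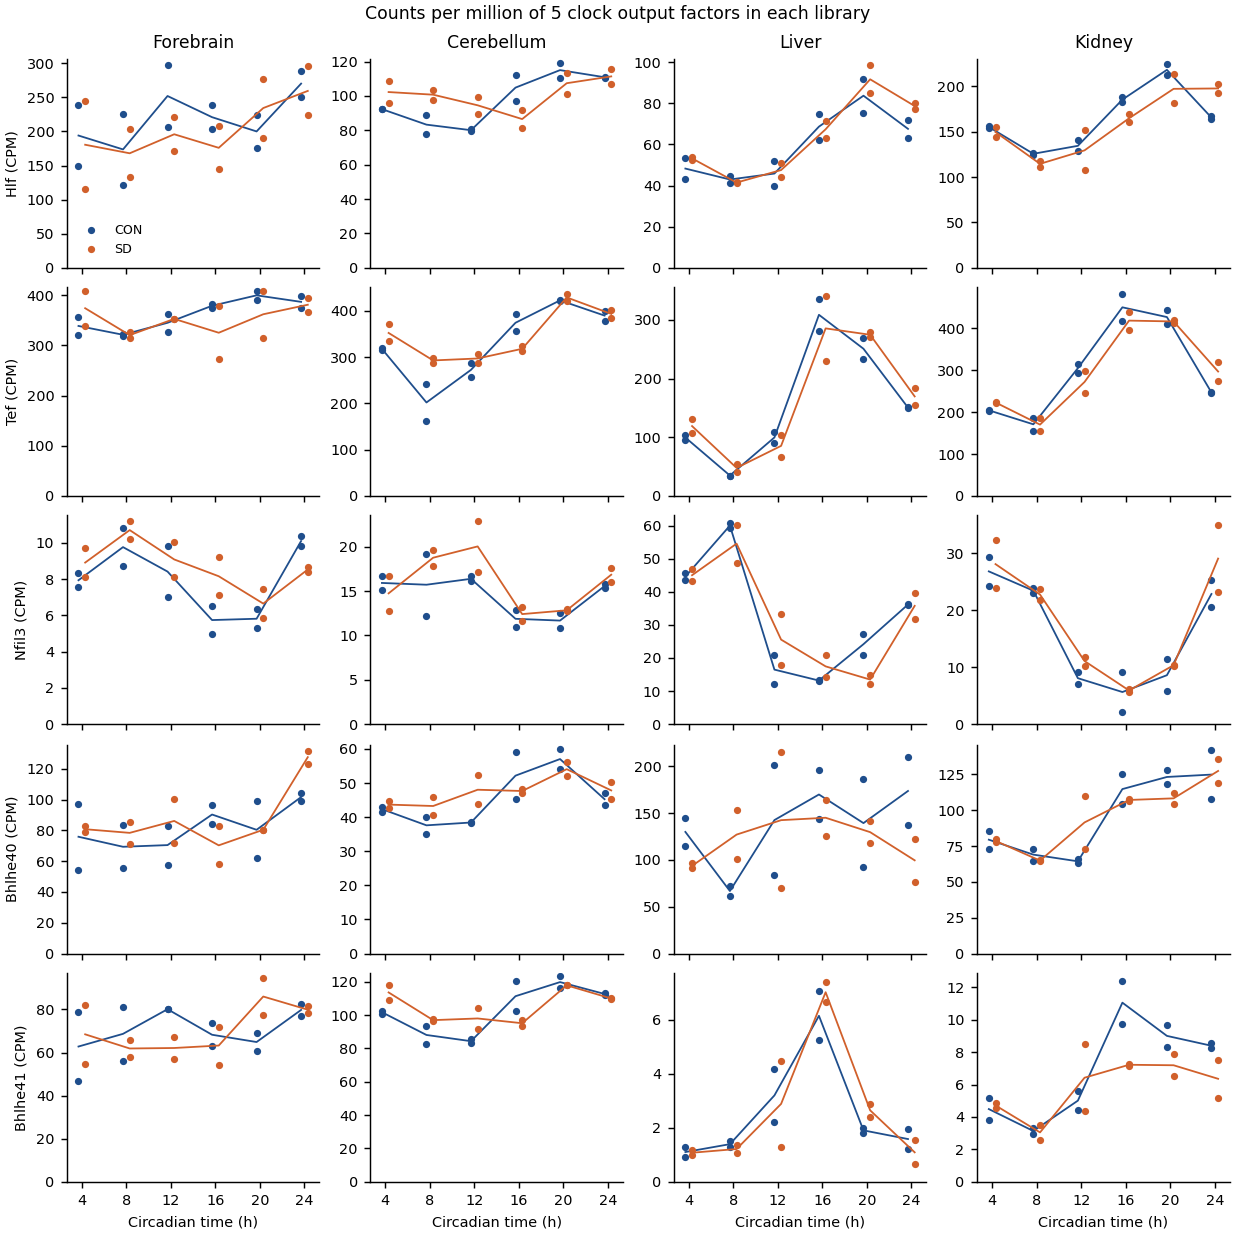
CPM against circadian time (h) for 5 factors (rows) in 4 tissues (columns), with 1 point for each library (blue CON, orange SD) and lines through the means of each pair. Liver Tef rises from 34.9 CPM at CT8 to 336 and 281 CPM at CT16 in CON. Forebrain Tef stays between 318 and 409 CPM in CON and between 272 and 409 CPM in SD.

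Tef had the largest liver rhythm of the 5. Both CON libraries at CT8 held 34.9 CPM, those at CT12 held 90.4 and 109, those at CT16 held 336 and 281, those at CT20 held 269 and 233, those at CT24 held 151 and 150, and those at CT4 held 104 and 94.8. The 2 times of highest level were thus separated from all others, with the means of CT16 and CT8 differing 8.85-fold. The fitted peak was at CT 19.4 ± 0.53 h with a fold of 6.27 (adjusted p = 0.000656 by edgeR), after the highest mean at CT16. In the kidney, Tef rose from 155 and 186 CPM at CT8 to 481 and 418 CPM at CT16, with a peak at CT 17.7 ± 0.27 h and a fold of 2.66 (adjusted p = 4.31e-06).

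In the brain, Tef had a smaller range around a high level. Forebrain Tef was lowest at CT8, at 318 and 324 CPM, and highest at CT20, at 390 and 409 CPM, a fitted fold of 1.30 with its peak at CT 19.8 ± 0.42 h (adjusted p = 0.0839 by edgeR). Cerebellar Tef was 162 and 242 CPM at CT8 and 423 and 421 CPM at CT20, with a peak at CT 20.8 ± 0.57 h, a fold of 1.92 and an adjusted p of 0.110. Without the CT8 library that stood apart, which held the 162 CPM, the adjusted p of cerebellar Tef was 0.00173, and Hlf (0.00464) and Bhlhe41 (0.0193) also passed. The fitted peak of Tef was then at CT 20.9 ± 0.32 h with a fold of 1.70.

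Hlf peaked later than Tef in the liver, the kidney and the cerebellum by point estimate, with smaller folds. Liver Hlf was 44.5 and 41.4 CPM at CT8 and 91.9 and 75.5 CPM at CT20, with a peak at CT 20.9 ± 0.56 h and a fold of 2.01 (adjusted p = 0.00137 by edgeR). Kidney Hlf was 127 and 124 CPM at CT8 and 224 and 212 CPM at CT20, with a peak at CT 20.3 ± 0.52 h and a fold of 1.65 (adjusted p = 0.000725). Pairs at the same time lay close together in the kidney and did not overlap between CT8 and CT20. In the cerebellum the mean of Hlf was lowest at CT12, at 80.5 and 79.6 CPM, and highest at CT20, at 111 and 119 CPM. The lowest library was replicate 2 at CT8, at 77.6 CPM, beside 89.0 CPM in the library that stood apart. Cerebellar Hlf had a fold of 1.42, or 1.52 without the library that stood apart. In the forebrain the pairs were too wide to show a rhythm, such as 239 and 149 CPM at CT4 and 122 and 225 CPM at CT8, and the SE of the peak time was 3.62 h.

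By the cosine fits Nfil3, the repressor at the D-box, peaked 7.10 ± 0.84 h after Hlf in CON liver and 7.68 ± 0.87 h after it in CON kidney. In the liver it was 59.3 and 60.7 CPM at CT8, when Tef and Hlf were at their lowest, and 13.0 and 13.3 CPM at CT16, when Tef was at its highest. Its fitted peak was at CT 4.00 ± 0.63 h with a fold of 4.57 (adjusted p = 0.00198 by edgeR), before its highest mean at CT8. In the kidney it fell from 24.3 and 29.4 CPM at CT4 to 2.12 and 9.16 CPM at CT16, with a peak at CT 3.99 ± 0.70 h and a fold of 6.82 (adjusted p = 0.00600). The kidney fold is the less certain of the 2, since the pair at CT16 differed more than 4-fold.

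In the brain Nfil3 peaked at CT 5.34 ± 1.43 h in the forebrain and CT 6.36 ± 1.16 h in the cerebellum. Without the library that stood apart, the cerebellar peak was at CT 6.73 ± 0.72 h with a fold of 1.61. The folds of 1.57 and 1.45 were smaller than in liver and kidney, and the adjusted p-values were 0.273 and 0.564 by edgeR. Forebrain Nfil3 was 4.99 and 6.49 CPM at CT16 and 9.83 and 10.4 CPM at CT24, so that the pairs at these times did not overlap.

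Bhlhe40 showed a kidney rhythm with a fold of 2.12 and a peak at CT 20.97 ± 0.56 h (adjusted p = 0.00125 by edgeR). Kidney libraries at CT12 held 65.8 and 62.9 CPM and those at CT24 held 108 and 142 CPM. In the liver the pairs were wide, with 84.1 and 201 CPM at CT12 and 92.2 and 186 CPM at CT20, and the adjusted p was 0.290. Only the CT8 pair, at 72.0 and 61.5 CPM, lay below all others in the liver. In the cerebellum Bhlhe40 went from 35.1 and 40.1 CPM at CT8 to 59.97 and 54.1 CPM at CT20, a fold of 1.43, or 1.44 without the library that stood apart.

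Bhlhe41 was rhythmic in the liver and the kidney, where it was scarce. In the liver it rose from 1.30 and 0.905 CPM at CT4 to 7.06 and 5.25 CPM at CT16 and was back at 1.99 and 1.82 CPM by CT20, with a fold of 3.88 and a peak at CT 15.6 ± 0.74 h (adjusted p = 0.00483 by edgeR). In the kidney it rose from 2.96 and 3.31 CPM at CT8 to 12.4 and 9.71 CPM at CT16 and stayed high, at 9.67 and 8.34 CPM at CT20 and 8.24 and 8.56 CPM at CT24, with a fold of 3.31 and a peak at CT 19.4 ± 0.46 h (adjusted p = 0.000582). The profile was thus narrower in the liver than in the kidney. In the forebrain, where the level was far higher, the fold was 1.10 and the peak time had an SE of 5.79 h. In the cerebellum, where the level was highest, the fold was 1.38 with a peak at CT 21.6 ± 0.76 h. Without the library that stood apart, that fold was 1.45.

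**Figure D3:**
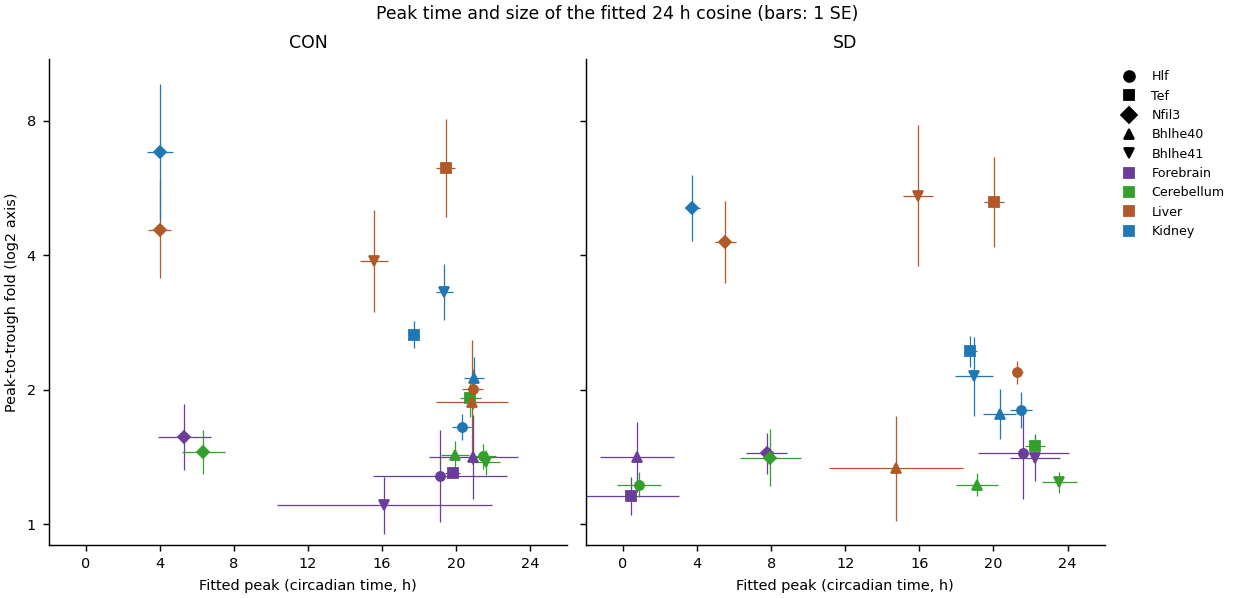
Fitted peak time (circadian time, h) against peak-to-trough fold (log2 axis) for 5 factors (symbols) in 4 tissues (colours), in CON and SD, with bars of 1 SE. Nfil3 lies alone between CT 3.74 and CT 7.94, while in CON the other 4 factors lie between CT 15.6 and CT 21.6 and the largest folds belong to liver and kidney.

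Since Arntl, which encodes BMAL1, sets the phase of the clock, peak times were also expressed in hours after the Arntl peak of the same tissue. The Arntl peak was at CT 5.21 ± 0.36 h in CON liver and CT 5.19 ± 0.28 h in CON kidney. All absolute peak times rest on the CT hours of the titles, whereas hours between peaks do not depend on where that scale starts. The fitted Nfil3 peak came 22.8 ± 0.72 h after it in the liver and 22.8 ± 0.75 h in the kidney, close to the fitted Arntl peak itself. Bhlhe41 came 10.4 ± 0.83 h after Arntl in the liver and 14.2 ± 0.54 h in the kidney, Tef 14.2 ± 0.64 h and 12.5 ± 0.39 h, and Hlf 15.7 ± 0.67 h and 15.1 ± 0.59 h. Tef and Bhlhe41 therefore exchanged their order between the 2 organs, and Hlf followed Tef in both.

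JTK_CYCLE, the rank method that the study used to call rhythms, was stricter with these 12 libraries per group. In CON it called Hlf in the kidney (adjusted p = 0.0365), where 0.158% of genes passed, and none of the 5 in the liver, where 0.147% passed. None passed in the forebrain or the cerebellum, where 0% of genes did. Unadjusted p-values were under 0.05 for 5 of the 5 factors in CON kidney, 4 in CON liver, 4 in CON cerebellum and 1 in CON forebrain.

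The rhythms of CON were then compared between tissues within a single edgeR fit. Between liver and kidney, Tef (adjusted p = 0.0145) and Bhlhe41 (adjusted p = 0.00307) differed in amplitude or timing, where 2.83% of genes did. Between the mean of liver and kidney and the mean of the brain regions, Tef (adjusted p = 0.000264), Nfil3 (adjusted p = 0.00154) and Bhlhe41 (adjusted p = 0.000159) differed, where 4.22% of genes did. Hlf (0.312) and Bhlhe40 (0.629) did not pass, and between forebrain and cerebellum none of the 5 passed and none had an unadjusted p under 0.05, where 0.275% of genes passed. All 5 of these calls held without the cerebellum library that stood apart, with adjusted p-values of 0.00393 (Tef) and 0.00220 (Bhlhe41) between liver and kidney and of 1.31e-05 (Tef), 0.00102 (Nfil3) and 0.000120 (Bhlhe41) against the brain. Without replicate 2 of every group, which leaves 1 library per group, none of the 5 passed in either comparison, and without replicate 1 only Bhlhe41 did.

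Turning to sleep deprivation, the level averaged over the 6 times was compared between SD and CON in each tissue. In the liver 2 of the 5 factors rose, Hlf and Tef, where 18.2% of genes passed. None passed in the kidney, where 2.3% of genes did, in the forebrain, where 0.0303% did, or in the cerebellum, where 0% did, and none of the 5 had an unadjusted p under 0.05 in these 3 tissues. DESeq2 also called none of the 5 there.

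Liver Hlf in SD ranged from 41.3 to 98.6 CPM (median 58.5), against 39.8 to 91.9 CPM (median 57.9) in CON, so that the groups overlapped almost fully when times were mixed. Within times, the pairs were apart only at CT24, at 80.3 and 77.0 CPM in SD against 72.0 and 63.2 CPM in CON. The mean of the SD pair was below that of CON at CT8, with 41.3 and 41.7 against 44.5 and 41.4 CPM, and at CT16, with 71.6 and 63.2 against 75.0 and 62.4 CPM. The log2 difference was 0.21 ± 0.06 (adjusted p = 0.0111 by edgeR), and it ranged from 0.19 to 0.24 when each of the 24 libraries was left out, with every such fit passing.

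Liver Tef in SD ranged from 41.2 to 341 CPM (median 143), against 34.9 to 336 CPM (median 129) in CON. The pairs did not overlap at CT8, with 41.2 and 54.5 CPM in SD against 34.9 in both CON libraries, nor at CT4, CT20 and CT24, whereas they overlapped at CT12 and CT16. The log2 difference of 0.25 ± 0.08 had an adjusted p of 0.0413 by edgeR and stayed past the threshold in 9 of the 24 fits without a library, the adjusted p ranging from 0.00608 to 0.0833. Its call was lost without either CON library at CT4, CT8 or CT24, without CON replicate 1 at CT12 or replicate 2 at CT16 or CT20, without either SD library at CT20, and without SD replicate 1 at CT4 or replicate 2 at CT8, CT12 or CT24.

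Both liver changes depended on the scaling. With library sizes alone the log2 difference of Hlf was 0.08 (adjusted p = 0.340) and that of Tef 0.11 (adjusted p = 0.381), while the median of all liver genes moved from 0.005 to -0.128. Of 19708 liver genes tested, 1857 were called higher and 1735 lower in SD with TMM, and 358 higher and 3766 lower with library sizes alone, so the rise is relative to the bulk of liver genes. The 6 leukocyte markers summed to 379 to 948 CPM in CON liver and to 172 to 387 CPM in SD liver, with all 6 at a mean of 1 CPM or more in CON and 5 in SD and none at 0, and the 4 erythroid markers to 127 to 277 and 134 to 300 CPM. Their part in the result was not tested.

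**Figure D4:**
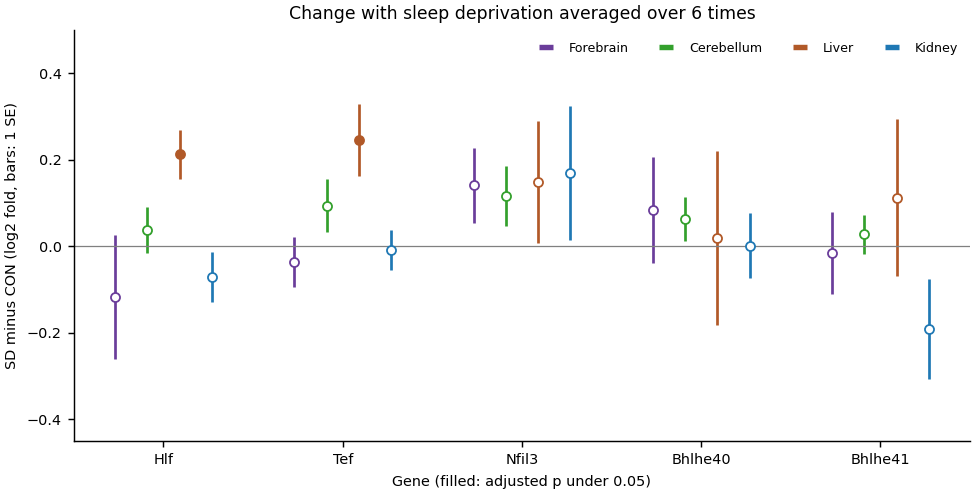
Log2 difference between SD and CON averaged over 6 times (y axis, bars of 1 SE) for 5 factors in 4 tissues (colours), with filled points where the adjusted p was under 0.05. The filled points are liver Hlf (0.21) and liver Tef (0.25), and the open points lie between -0.19 and 0.17.

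The other factors did not pass in any tissue. Nfil3 was higher in SD by point estimate in all 4 tissues, by 0.17 ± 0.16 in the kidney, 0.15 ± 0.14 in the liver, 0.14 ± 0.09 in the forebrain and 0.12 ± 0.07 in the cerebellum on the log2 scale, with adjusted p-values from 0.527 to 0.907 by edgeR. With library sizes alone the liver value was 0.00852, which was then also the median of the 5 in the liver. The lowest estimate among all 20 was that of kidney Bhlhe41, at -0.19 ± 0.11 (adjusted p = 0.503), where SD libraries ranged from 2.58 to 8.48 CPM and CON libraries from 2.96 to 12.4 CPM. Liver Bhlhe40 had the widest error of the 20, at 0.02 ± 0.20. The median of the 5 was 0.149 in the liver, 0.064 in the cerebellum, -0.008 in the kidney and -0.015 in the forebrain.

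When all 6 times were tested together for any difference between SD and CON, none of the 5 passed in edgeR in any tissue, and 4 of the 20 tests had an unadjusted p under 0.05. The share of all genes that passed was 3.56% in the liver, 0.725% in the kidney and 0% in the forebrain and the cerebellum. Liver Nfil3 came nearest to the threshold (unadjusted p = 0.0155 from edgeR's test over all genes, adjusted p = 0.160). Its SD libraries held 33.4 and 17.7 CPM at CT12 and 14.1 and 20.8 CPM at CT16, against 20.8 and 12.1 and then 13.0 and 13.3 in CON, but 14.8 and 12.1 CPM at CT20 against 21.05 and 27.3 in CON. The log2 differences were 0.82 ± 0.27 at CT12, where the pairs overlapped, 0.59 ± 0.28 at CT16 and -0.75 ± 0.27 at CT20. By point estimate SD was thus above CON at CT12 and CT16 and below it at CT20. The direct test of the rhythm between SD and CON did not pass for liver Nfil3 (adjusted p = 0.9997 by edgeR). Without SD replicate 1 at CT16 the adjusted p of liver Nfil3 was 0.0307.

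Cerebellar Tef also changed sign over time in SD, with 288 and 298 CPM at CT8 against 162 and 242 in CON, and 323 and 312 CPM at CT16 against 392 and 356 in CON. The adjusted p was 0.529 by edgeR, and 0.314 without the CT8 library that stood apart. Without the other CON library at CT8, replicate 2, the adjusted p was 0.000482 for Tef, 0.0395 for Hlf and 0.0499 for Bhlhe41, in a fit that then rests on the library that stood apart for CT8. The 4 choroid plexus markers, which moved in these libraries, summed to 7.78 to 1862 CPM in CON cerebellum (median 25.3) and 8.78 to 3046 CPM in SD cerebellum (median 708), with 3 of the 4 at a mean of 1 CPM or more and none at 0 in every library, and their part in the result was not tested.

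Rhythms within SD were fitted as in CON. In SD liver, 4 of the 5 passed the cosine test in edgeR, Hlf, Tef, Nfil3 and Bhlhe41, where 11.8% of genes did. In SD kidney Hlf, Tef and Nfil3 passed, where 1.92% did, and Bhlhe40 (adjusted p = 0.0551) and Bhlhe41 (adjusted p = 0.122) did not, although both did without SD replicate 2 at CT12 (adjusted p = 0.00527 and 0.0155). In SD cerebellum Tef passed (adjusted p = 0.0281), where 0.0945% of genes did, and in SD forebrain none of the 5 did, where 0.00433% did, with 2 of them at an unadjusted p under 0.05 and no further calls by DESeq2. The call of cerebellar Tef was lost without 8 of the 12 SD libraries in turn (adjusted p up to 0.126), both libraries at CT8, CT20 and CT24 and replicate 1 at CT12 and CT16.

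Peak-to-trough folds in the liver were 2.19 in SD and 2.01 in CON for Hlf, 5.26 and 6.27 for Tef, 4.29 and 4.57 for Nfil3, and 5.44 and 3.88 for Bhlhe41. In the kidney Bhlhe41 had a fold of 2.14 in SD against 3.31 in CON, since its SD level at CT16 was 7.28 and 7.16 CPM against 12.4 and 9.71 in CON. In the cerebellum all 5 folds were smaller in SD than in CON by point estimate, with medians of 1.24 and 1.43, and the CON median was 1.52 without the library that stood apart. JTK_CYCLE called Hlf (adjusted p = 0.0167) and Tef (adjusted p = 0.0426) in SD liver, where 1.76% of genes passed. It called none of the 5 in the other 3 tissues in SD, where 0% of genes passed, with 3 of the 5 at an unadjusted p under 0.05 in the kidney and 1 each in forebrain and cerebellum.

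**Figure D5:**
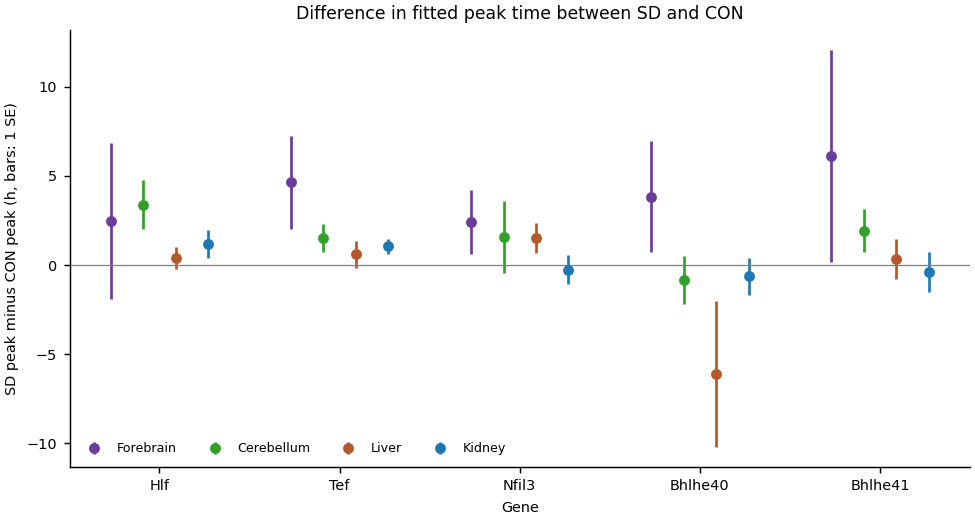
Difference in fitted peak time, SD minus CON (h, bars of 1 SE), for 5 factors in 4 tissues (colours). All 4 Hlf and all 4 Tef points lie above 0, and cerebellar Hlf (3.38 h) and kidney Tef (1.05 h) lie more than 2 SE from 0.

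The fitted peaks were later in SD in 15 of 20 pairs of factor and tissue and earlier in 5. Hlf and Tef were later in 4 of 4 tissues each, by 0.39 ± 0.63 h and 0.60 ± 0.75 h in the liver, 1.17 ± 0.79 h and 1.05 ± 0.44 h in the kidney, 3.38 ± 1.38 h and 1.504 ± 0.78 h in the cerebellum, and 2.47 ± 4.39 h and 4.65 ± 2.61 h in the forebrain. Without the cerebellum library that stood apart, the cerebellar values were 3.63 ± 1.26 h and 1.33 ± 0.63 h. Counted from the Arntl peak of the same tissue and condition, the peak of Hlf went from 15.7 h in CON to 15.6 h in SD in the liver, from 15.1 to 16.6 h in the kidney, from 12.7 to 13.7 h in the cerebellum and from 13.5 to 15.8 h in the forebrain. That of Tef went from 14.2 to 14.3 h in the liver, from 12.5 to 13.8 h in the kidney, from 12.04 to 11.15 h in the cerebellum and from 14.1 to 18.6 h in the forebrain. On this scale liver Hlf and cerebellar Tef were thus not later in SD by point estimate. Liver Nfil3 was later by 1.54 ± 0.84 h, while Bhlhe40 was later only in the forebrain by point estimate. The 20 pairs share libraries within a tissue and are not independent. In the direct test of the rhythm between SD and CON, none of the 5 passed in any tissue by edgeR or by DESeq2, and 0% of genes passed in each tissue by edgeR. An unadjusted p under 0.05 was seen in 3 of the 20 tests, cerebellar Hlf and Tef (adjusted p = 0.483 and 0.489, or 0.313 and 0.437 without the library that stood apart) and kidney Tef (adjusted p = 0.999).

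Whether the averaged SD effect differed between tissues was tested over all 96 libraries. None of the 5 passed, where 5.07% of genes did, and Tef (adjusted p = 0.167) and Hlf (adjusted p = 0.247) had unadjusted p-values under 0.05 in edgeR. The rise of both in the liver was therefore not shown to differ from their values in the other tissues.

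Among the 14 core clock genes and their direct regulators, none passed for the level averaged over time, for any time or for the rhythm difference between SD and CON in any tissue by edgeR. For the averaged level, an unadjusted p under 0.05 was seen for 1 of 13 in the liver, 2 of 14 in the kidney, 4 of 14 in the cerebellum and 0 of 14 in the forebrain. By the cosine test 10 of 13 passed in CON liver, 11 of 13 in SD liver, 11 of 14 in CON kidney and 12 of 14 in SD kidney, where 8.79%, 11.8%, 3.93% and 1.92% of all genes passed. In the brain regions the counts were 2 of 14 in CON forebrain (Nr1d1 and Ciart), 0 in SD forebrain, 1 in CON cerebellum (Nr1d1) and 3 in SD cerebellum (Arntl, Nr1d1 and Ciart), where 0.0997%, 0.00433%, 0.0045% and 0.0945% of all genes passed. Calls over all genes were thus also more frequent in liver and kidney than in the brain.

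Among 9 genes known as targets of the PAR bZIP factors, 4 passed in the liver for the averaged level, with 2 higher and 2 lower in SD, where 18.2% of all genes passed. Por, the reductase that feeds electrons to cytochrome P450 enzymes, rose by 0.44 ± 0.12 on the log2 scale (adjusted p = 0.0127 by edgeR), and Nr1i3, the xenobiotic receptor CAR, by 0.21 ± 0.07 (adjusted p = 0.0372). The cytochromes Cyp2a4 (-2.63 ± 0.43) and Cyp2a5 (-0.63 ± 0.15) fell, but their separate values are uncertain, since reads that could not be placed between near-identical genes may have been lost to the mapping quality filter. The median of the 9 was 0.114, beside 0.005 over all liver genes. These are values with TMM, relative to the bulk of liver genes. The targets were not examined with library sizes alone, which moved the median of all liver genes to -0.128. Por and Cyp2a4 also differed between tissues in their SD effect (adjusted p = 0.0295 and 0.000676 by edgeR). A gene could enter that test through its counts in 1 tissue. Only 5 of the 9 were tested within each brain region and 7 within the kidney. For a gene scarce outside the liver, such a difference says little about the other tissues. By the cosine test 8 of 9 passed in CON liver (all but Cyp7a1) and 8 of 9 in SD liver (all but Cyp2a4), against 3 of 7 in CON kidney, 2 of 7 in SD kidney and 0 of 5 in each brain region. The share of all genes was 8.79% and 11.8% in CON and SD liver, 3.93% and 1.92% in CON and SD kidney, and 0.0997% or less in the brain. The liver peaks of Por at CT 20.6 ± 0.49 h and of Nr1i3 at CT 19.9 ± 0.68 h in CON lay between those of Tef and Hlf. These peaks were named after they were seen and do not stand for the other targets, whose peaks are not given.

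To see which genes ran most like each factor, Pearson's r of log2 CPM was computed across the 96 libraries after the mean of each tissue had been removed, over 12210 genes. The libraries share times, conditions and dissections, so r is a description. Tef was most like the clock genes Per3 (r = 0.955), Ciart (0.920) and Per1 (0.864), followed by Klf13 (0.864) and Coq10b (0.837), and most opposite to Npas2 (-0.860), Arntl (-0.782) and Clpx (-0.769). Nfil3 was most like Arntl (r = 0.852), Leo1 (0.794), Ppard (0.751), Clock (0.742) and Slc16a1 (0.730), and most opposite to Nr1d2 (-0.803), Ciart (-0.721) and Tspan4 (-0.706). Between Tef and Nfil3 r was -0.610, and between Hlf and Nfil3 it was -0.213.

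Bhlhe41 was most like Nr1d2 (r = 0.726), Tns2 (0.716), Jade1 (0.668), Ciart (0.649) and E130102H24Rik (0.639), and most opposite to Arntl (-0.754), Cdkn1a (-0.721) and Lgalsl (-0.684). Bhlhe40 was most like 0610040F04Rik (r = 0.886), an antisense gene that overlaps 306 bases of Bhlhe40 on the opposite strand, and then Tob2 (0.703), Klf10 (0.574), Sertad1 (0.572) and Hlf (0.558). The lowest values for Bhlhe40 were those of Mmp14 (-0.447), Orc3 (-0.436) and Zmym6 (-0.421). Hlf was most like Herpud1 (r = 0.762), Man2a1 (0.749), Zfyve9 (0.742), Bnip3 (0.741) and Coq10b (0.735), with no clock gene among the 5, and most opposite to Ccnjl (-0.635), Clmp (-0.613) and 4930578M01Rik (-0.611). Between Hlf and Tef r was 0.648, and between Bhlhe40 and Bhlhe41 it was 0.508.

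Dbp, known elsewhere for a strong daily rhythm, could not be followed here. All 96 libraries together held 57 counts on Dbp, with 0 counts in 66 libraries and at most 5 in any. A count of 0 allows up to 3 counts, which was 0.0513 CPM at the highest depth and 0.121 CPM at the lowest, for counting error only. Summed over 12 libraries, Dbp had 8 counts in CON and 7 in SD cerebellum, 7 and 4 in forebrain, 12 and 9 in kidney, and 3 and 7 in liver, so that no difference was detectable at this depth. Dbp overlaps 737 bases of Sphk2 on the opposite strand, and Sphk2 was counted at means of 36.9 to 70.1 CPM in the 4 tissues.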

How the data were processed

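Gene counts were measured in 96 rRNA-depleted, stranded, paired-end total RNA libraries. The authors deposited raw gene counts. Their processing notes name Trim Galore, HISAT2, SAMtools (reads of mapping quality 60 kept) and featureCounts, used by strand on GRCm38. The filter can undercount near-identical genes. All 96 columns of the series table equalled the single library files. It held 54833 features, of which 49585 had Ensembl identifiers and 49326 a symbol in GENCODE M21, and 5248 were numbered loci of unstated origin. The loci took 0.0840% to 1.06% of the counts and stayed in the library totals. Depth was 24.8 to 58.5 M counts.

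Groups came from the sample titles. The 2 replicates of a group are separate samples by the labels, and the study calls them biological. For 20 of 24 kidney libraries the characteristics differ from the titles. CPM was the count over the library total, times 1e6. Tests were quasi-likelihood tests (edgeR 4.0.16, limma 3.58.1, R 4.3.3) with TMM factors and filterByExpr, with p-values adjusted over every gene tested after Benjamini and Hochberg, at a threshold of 0.05. Level between SD and CON was fitted per tissue with time as a factor. All times together, rhythm (cosine and sine of 24 h) and rhythm difference were further tests per tissue. Tissues were compared in 1 fit over 48 CON libraries, and the SD effect between tissues over 96. JTK_CYCLE was written in Python 3.11.15 (numpy 2.4.6, pandas 2.3.3, scipy 1.17.1, figures with matplotlib 3.10.9) on CPM with 6 phases. Peak times and folds are least-squares fits to log2 CPM with TMM factors and a prior count of 0.5, with delta-method SE. Scripts were tested on simulated data. Alternatives were DESeq2 1.42.0, DESeq2 size factors, library sizes alone, no filter, a replicate block, leaving out libraries and, for JTK_CYCLE, TMM factors and TPM.

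The 6 factors and the gene lists (clock genes, PAR bZIP targets, and markers of tissues, leukocytes, choroid plexus and erythroid cells) were chosen with earlier results of these data known. All 6 factors were named, the genes of the first 2 lists by counts with values for those past the threshold, and for likeness the 5 genes of highest and 3 of lowest r among those at a mean of at least 1 CPM in every tissue. Values of single clock genes and of targets that set a time were named after they were seen.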

Additional observations from a re-analysis of the deposited data

Results flagged for a closer look

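The rhythm in CON differed between tissues by the direct edgeR test for 3 of the factors. Between liver and kidney the adjusted p was 0.0145 for Tef, whose fold was 6.27 in the liver and 2.66 in the kidney, and 0.00307 for Bhlhe41, which peaked at CT 15.6 h in the liver and CT 19.4 h in the kidney. Between liver and kidney on the one side and the brain regions on the other it was 0.000264 for Tef, 0.00154 for Nfil3 and 0.000159 for Bhlhe41, whose folds were larger in liver and kidney. Leaving out replicate 1 or replicate 2 of every group gave adjusted p-values of 0.288 and 0.848 for Tef between liver and kidney.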

How the results depend on the processing

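Counts of called factors under other settings were as follows. With no filter on low counts, 3 factors passed at any time in the kidney, 3 in the liver and 1 in the cerebellum (0 in each with the filter), 2 for the rhythm difference in the liver (0), 4 for the SD rhythm in the cerebellum (1) and 5 in the kidney (3). With the DESeq2 likelihood ratio test, the cosine calls were 1 in CON forebrain (0), 4 in CON cerebellum (0), 2 in SD cerebellum (1) and 5 in SD kidney (3). With library sizes alone, 0 passed for the level in the liver (2). With JTK_CYCLE, SD liver gave 0 on TPM and 1 without the filter (2), and CON kidney gave 0 on TPM, with TMM factors and without the filter (1). Leaving out libraries gave 0 to 3 factors for any time in the cerebellum, 0 to 1 in the liver, 0 to 3 and 0 to 1 for the CON and SD rhythm of the cerebellum, 3 to 5 for the SD rhythm of the kidney, 1 to 2 for the level in the liver, 3 to 5 for forebrain against cerebellum, 0 to 2 and 0 to 3 for the rhythm of liver against kidney and against the brain, 0 to 2 for JTK_CYCLE in SD liver and 0 in CON kidney. The cause was not tested.

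Signs reversed for values near 0. With library sizes alone, liver Bhlhe40 was -0.12, liver Bhlhe41 -0.0262 and kidney Tef 0.0133 for SD against CON, and cerebellum against kidney was 0.18 for Tef and 0.11 for Nfil3. With DESeq2 size factors the last 2 were 0.10 and 0.0137. With no filter, Hlf was -0.0355 for cerebellum against liver. Leaving out libraries gave ranges of -0.0633 to 0.00319 (forebrain Tef), -0.0613 to 0.0220 (forebrain Bhlhe41), -0.112 to 0.102 (liver Bhlhe40), -0.0107 to 0.201 (liver Bhlhe41), -0.0360 to 0.0134 (kidney Tef) and -0.0662 to 0.0269 (kidney Bhlhe40) for SD against CON. Between tissues they gave -0.0675 to 0.0815 (Hlf, cerebellum against liver), -0.0933 to 0.0240 (Tef, cerebellum against kidney) and -0.239 to 0.0660 (Nfil3, cerebellum against kidney).

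The labels do not say that replicate numbers pair the samples, and correlations from 2 libraries per group cannot decide it. Deviations of same-numbered CON and SD libraries correlated at -0.324 to 0.375 (median 0.047, over 0.1 in 7 of 24 pairs). Those of tissues correlated at -0.067 to 0.298 (median 0.028, over 0.1 in 7 of 72 pairs). The main fits across tissues took all libraries as independent, and the labels do not say whether tissues came from the same mice. With the replicate block, 0 factors passed for the SD rhythm in the cerebellum (1), kidney Bhlhe40 was -0.00109 for SD against CON, and the adjusted p of liver Hlf and Tef was 0.0107 and 0.0323.

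Calls over all genes moved by over 1.5 times under some settings. For the averaged level they went from 7 to 17 in the forebrain and from 0 to 1 in the cerebellum with DESeq2, from 0 to 1 in the cerebellum and from 495 to 1043 in the kidney with no filter. Calls for any time went from 156 to 2705 (kidney), 702 to 2873 (liver), 0 to 3552 (cerebellum) and 0 to 729 (forebrain) with no filter, from 702 to 1151 (liver) and 156 to 53 (kidney) with library sizes alone, and from 702 to 443 (liver) with the block. Calls of a rhythm difference, 0 in each tissue, were 1 (forebrain), 409 (liver) and 38 (kidney) with no filter and 5 (forebrain), 12 (cerebellum) and 4 (liver) with DESeq2. Cosine calls with no filter and with DESeq2 were 65 and 1446 in CON forebrain (23), 293 and 313 in SD forebrain (1), 3 and 173 in CON cerebellum (1), 1915 and 581 in SD cerebellum (21), 3787 and 3237 in CON liver (1732), 3768 and 3566 in SD liver (2328), 2353 and 1792 in CON kidney (846) and 1017 and 1448 in SD kidney (414). With the block they were 0 in SD forebrain, 0 in CON cerebellum and 7 in SD cerebellum, and with library sizes alone 3 in CON and 12 in SD cerebellum. For forebrain against cerebellum the rhythm calls went from 73 to 328 with no filter and 47 with the block, and for the SD effect between tissues from 1386 to 2451 with library sizes alone. JTK_CYCLE calls fell from 29 in CON liver and 34 in CON kidney to 0 with TMM factors, on TPM and without the filter, and from 347 in SD liver to 135, 0 and 160. Standard errors of the fitted brain peak times ran from 0.421 h (Tef, CON forebrain) to 5.79 h (Bhlhe41, CON forebrain). Depth bears most on low values such as liver Bhlhe41, whose lowest SD library held 0.646 CPM.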
